A study of Mus musculus with 11 samples.

Results

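The comparison set 2 RNA-seq libraries of fetal liver hematopoietic stem cells (FL HSCs) against the 5 libraries of the populations before and after them in development, 3 of pre-HSCs and 2 of adult bone marrow HSCs (BM HSCs). These are 7 of the 11 libraries of the series, which also holds 2 libraries each of arterial endothelium (Endo) and hemogenic endothelium (HE) from E10.5 embryos of B6C3F1 females and Runx1tm4Dow males. Their cells were told apart by a green reporter of Runx1 (Runx1:GFP), present in HE and absent in Endo. A gene belonged to the comparison when both FL libraries lay above, or both lay below, each of the 5 others. Among 14708 genes with at least 1 FPKM (a read level scaled for transcript length and library size) in at least 2 libraries, 2338 genes (15.9%) had both FL libraries above and 1482 genes (10.1%) had both below. FL HSCs were sorted from fetal livers at E14.5 as cells without lineage markers that carried Sca1, Kit and CD150 and lacked CD48, and the fetuses came from B6C3F1/J females mated with B6129SF1/J males. Pre-HSCs were CD31+ CD144+ ESAM+ Kit+ Ly6a:GFP+ cells of embryos from superovulated B6C3F1/J females and B6.Cg-Tg(Ly6a-GFP)G5Dzk/J males. In this Ly6a:GFP transgene the green protein reports activity of Ly6a regulatory sequence. The sample labels give E10.5 for pre-HSCs while the study's text places them 1 day later. BM HSCs came from B6C3F1/J and B6129SF1/J mice of 6 to 8 weeks and were sorted as Sca1+ Kit+ CD150+ cells without lineage markers, which the study's sorting methods give as CD48- CD135- and its sample table as CD34- with no mention of CD48. The sample labels name B6129SF1 for all libraries. Pre-HSC, Endo and HE tissue was digested with collagenase, fetal liver was dissociated mechanically, and BM cells were enriched on Kit beads before sorting. Strain, age, tissue, cell preparation and sort gate thus differed along with population, and their parts in any difference cannot be told apart here. Embryos and mice were pooled, and the study calls the libraries of a population biological replicates without saying how they were separated, so p-values measure the spread between these libraries only.

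Pre-HSCs are cells of the clusters in embryonic arteries that are on their way to become stem cells. The fetal liver then houses HSCs for some days, in which the stem cells divide and expand in number, while most of the organ makes red cells, together with macrophages, granulocyte precursors and hepatoblasts. HSCs later settle in the marrow, where most of them become quiescent. FL HSCs therefore stand between a population that has recently left endothelium and a resting adult one, and the comparison asks which genes set them off from both.

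The files hold FPKM only and no read numbers. Depth is therefore unknown, and values carry no counting interval or floor. Total FPKM were 751594 and 648708 in FL HSCs, 569851 to 610013 in pre-HSCs, and 622615 and 653806 in BM HSCs. On the log2(FPKM + 1) scale the FL libraries correlated at 0.98 with each other across genes, at 0.92 to 0.93 with pre-HSCs and at 0.95 to 0.97 with BM HSCs. Of 8 stem and progenitor markers (Kit, Ly6a, Slamf1, Mecom, Hlf, Meis1, Ptprc and Myb), 8 reached 1 FPKM in each FL library, and the same held in each BM library. Their FPKM summed to 388 and 548 in the FL libraries, 121 to 143 in pre-HSCs, and 784 and 758 in BM HSCs. Ly6a, which encodes Sca1, was at 3.9 and 9.99 FPKM in FL HSCs, 3.57 to 7.09 in pre-HSCs, and 32.3 and 43.2 in BM HSCs. Cd48, whose protein the FL gate excludes, was at 35.9 and 16.6 FPKM in FL HSCs, 2.95, 2.45 and 6.09 in pre-HSCs, and 5.01 and 7.72 in BM HSCs, and it was called high in FL HSCs with a log2 difference of 2.14 (SE 0.34, limma's adjusted p = 0.00134). By the sorting methods BM HSCs had passed the same exclusion of CD48. Because a 0 in these files may be a failed estimate, such genes are described as listed at 0.

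To ask which genes set FL HSCs apart beyond the spread of the libraries, log2(FPKM + 1) was fitted with limma over all 11 libraries, and the FL HSC mean was compared with the average of the pre-HSC mean and the BM HSC mean. This difference is given below as the log2 difference with its standard error (SE), and it understates the change of genes at low FPKM because of the pseudocount of 1. A gene was called when it passed 0.01 in the F test across the 5 populations and 0.05 in the comparison itself (both Benjamini-Hochberg adjusted), changed at least 2-fold, and had no overlap between the 2 FL libraries and the 5 others. Of the 14708 genes, 488 (3.32%) were called high and 495 (3.37%) low in FL HSCs. The median log2 difference was 1.29 among the genes called high and -1.53 among those called low, and 33 high and 26 low genes passed 8-fold. Of the 488 high genes, 65 reached 1 FPKM in fewer than 2 libraries outside FL HSCs, so they entered the test only through the group in which they were high. Counts of calls in the gene lists below are to be read against these shares of all genes. With FPKM scaled to equal totals the median of all genes moved to -0.16, and 299 genes were high against 651 low, or 31.5% high in place of 49.6%. Small differences are to be read relative to that shift. Without FL replicate 2, the gene counts were 691 high and 779 low, and without FL replicate 1 they were 332 and 492. With no filter on low values 373 genes were high and 361 low, and among the genes described below Alb, Ccne1, Dusp1, Egr1, Fech, Fos, Hbb-b1, Klf4, Marco, Mcoln1, Rb1, Rsad2, Shmt1, Snora31, Vwf and Zfp36 were then not called.

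A call did not require FL HSCs to differ from each neighbor. Of the 488 high genes, 223 were at least 2-fold higher than in each of pre-HSCs and BM HSCs with an adjusted p under 0.05, 225 passed this only against pre-HSCs and 40 only against BM HSCs. Of the 495 low genes, 171 passed against both, 276 only against pre-HSCs and 48 only against BM HSCs. In 353 of the high and 401 of the low genes the difference from pre-HSCs was larger than that from BM HSCs. Endo and HE took no part in the rule on overlap, but they entered the filter, the fit and the F test behind each call. Both FL libraries also lay above the 4 Endo and HE libraries in 430 high genes (88.1%), and below them in 412 low genes (83.2%). The same share was not taken over all genes, so these counts are a description only.

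**Figure D1:**
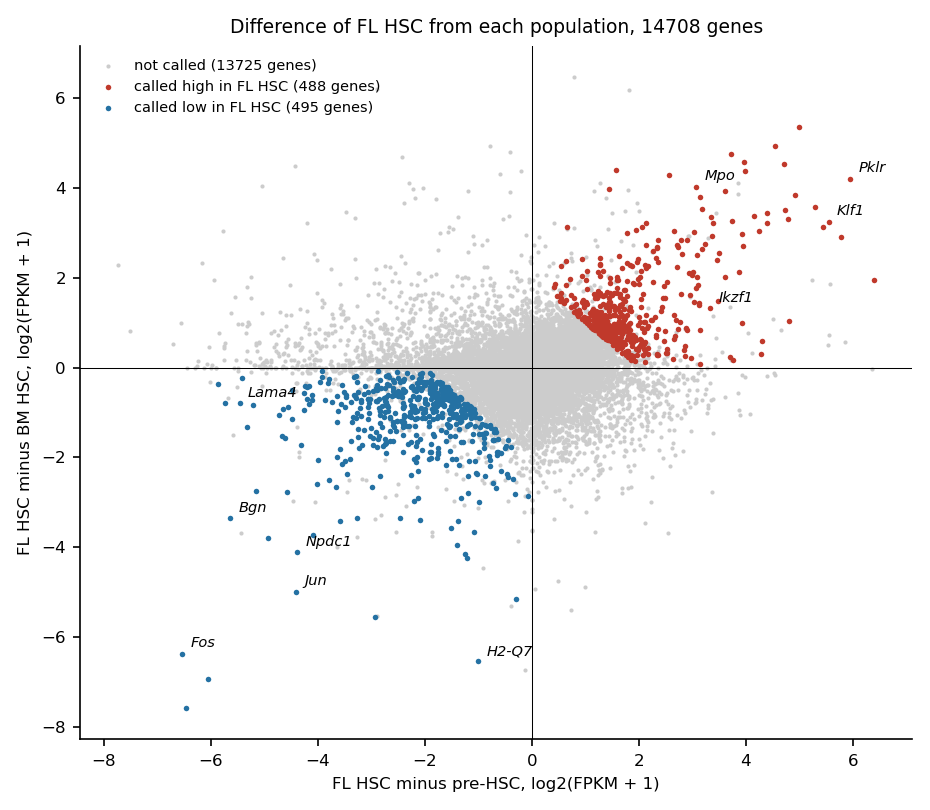
Difference of FL HSCs from pre-HSCs (x axis) and from BM HSCs (y axis) in log2(FPKM + 1), 1 point per gene for 14708 genes, with the 488 genes called high in red, the 495 called low in blue and the rest in grey. The called genes fill the upper right and lower left corners, where the rule for a call places them. Many lie close to the x axis, differing more from pre-HSCs than from BM HSCs.

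The edge of the rule was fine. Ncaph, a condensin subunit, lay just inside with 35.3 and 36.6 FPKM in FL HSCs against a highest value of 35.3 among the others, whereas Tmem203, with 13.4 and 14.1 in the FL libraries, lay just outside on the low side, since the lowest of the 5 others was also 14.1. Unrounded, the values are not equal, and both genes were chosen only for their place at the edge. When the nearest libraries had to be at least 1.5-fold apart, 321 genes stayed above and 243 below.

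The 12 leading high genes, ranked by the smaller of the differences from pre-HSCs and from BM HSCs among genes with at least 10 FPKM in FL HSCs, included red cell, granulocyte and macrophage genes. Pklr, the pyruvate kinase of red cells and liver, was at 86.8 and 69.7 FPKM in FL HSCs, 0.263, 0.18 and 0.4 in pre-HSCs, and 1.66 and 5.82 in BM HSCs (log2 difference 5.08, SE 0.35, limma's adjusted p = 1.22e-05). Ermap, an erythroid membrane protein, was at 67.1 and 70.5 FPKM in FL HSCs, 1.04, 0.532 and 0.826 in pre-HSCs, and 3.44 and 6.69 in BM HSCs (4.43, SE 0.33, adjusted p = 1.8e-05 by limma). Cited4, a transcriptional coactivator, was at 84.5 and 53.8 FPKM in FL HSCs, 0.959 to 1.64 in pre-HSCs, and 3.97 and 3.61 in BM HSCs, and Cldn13, a claudin, at 27.5 and 21.9 FPKM, 0 to 0.518 and 1.04 to 1.69. In each of these genes the 2 FL libraries were close to each other and many-fold above all 5 others. Mt2, a metallothionein that binds zinc and copper, was at 215 and 136 FPKM in FL HSCs, 6.44 to 20.9 in pre-HSCs, and 3.58 and 7.91 in BM HSCs (4.23, SE 0.39, limma's adjusted p = 6.56e-05). It was also at 63.9 to 101 FPKM in the Endo and HE libraries, so the 5 neighbors were the low ones.

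**Figure D2:**
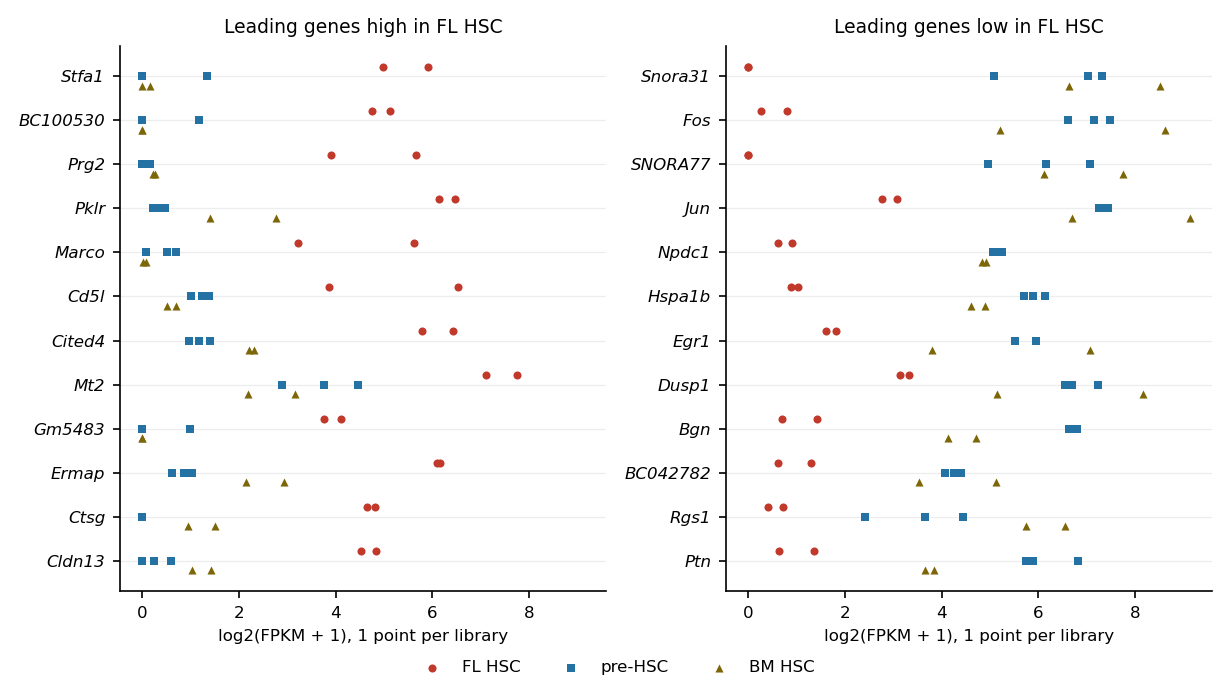
The 12 leading genes high (left) and low (right) in FL HSCs, with log2(FPKM + 1) on the x axis and 1 point per library (red circles FL HSC, blue squares pre-HSC, brown triangles BM HSC). Both FL libraries lie apart from the 5 others in every gene, as a call requires. The BM libraries are far apart in Fos, Jun, Egr1 and Dusp1.

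Stfa1, BC100530 and Gm5483 lie within 1 cluster of stefin A genes on chromosome 16 (NCBIM37, mm9, from 36184298 at the start of Gm5483 to 36367834 at the end of BC100530), which encode inhibitors of cysteine proteases. Stfa1 was at 59.1 and 30.7 FPKM in FL HSCs, 1.53 in pre-HSC replicate 2 with the other pre-HSC libraries listed at 0, and 0 and 0.126 in BM HSCs. BC100530 was at 33.9 and 25.9 FPKM and Gm5483 at 16.3 and 12.6 FPKM in FL HSCs. Both were listed at 0 in 2 of the 3 pre-HSC libraries and both BM libraries, with 1.28 and 0.996 FPKM in the third pre-HSC library. These genes are near-identical copies, so reads may have been split among them and their single values are uncertain. Gm5483 reached 1 FPKM in the FL libraries only, and Stfa1 and BC100530 in only 1 library outside them. These genes thus entered the test only through FL HSCs and had to differ.

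Erythroid genes formed the longest set of calls. Of 46 tested genes of red cell regulators, membrane, heme and globin, 27 were called high and none low, against 3.32% of all genes, and the median log2 difference was 1.64, where that of all genes was 0.00. Of the 27, Tspo2 entered the test only through FL HSCs and had to differ, which leaves 26 others. The regulators were among the highest. Klf1, the zinc finger factor that drives globin and red cell membrane genes, was at 107 and 66.6 FPKM in FL HSCs, 0.837, 0.757 and 0.873 in pre-HSCs, and 5.71 and 11 in BM HSCs (log2 difference 4.4, SE 0.33, limma's adjusted p = 1.98e-05). Gata1, the lead factor of the red cell and platelet lineages, was at 64.7 and 42.6 FPKM in FL HSCs, 0.799 to 1.05 in pre-HSCs, and 20.7 and 30.4 in BM HSCs. Epor, the receptor for erythropoietin, was at 52.7 and 46.2 FPKM in FL HSCs, 2.8, 2.97 and 5.13 in pre-HSCs, and 15 and 19.4 in BM HSCs (2.48, SE 0.21, adjusted p = 3.54e-05 by limma). The BM libraries thus held clear levels of Gata1 and Epor, while pre-HSCs were near the bottom of the scale.

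Genes of the red cell membrane and its skeleton were called high as well. Rhd and Rhag, of the Rhesus complex, were at 37.6 and 28 and at 20.1 and 22.6 FPKM in FL HSCs, below 1.1 in every pre-HSC library, and between 1.36 and 3.58 in BM HSCs. Ank1 (ankyrin) was at 22.7 and 18.6 FPKM in FL HSCs, 0.611 to 2.2 in pre-HSCs, and 1.61 and 2.01 in BM HSCs. Add2 (adducin) was at 33.3 and 23.1 FPKM in FL HSCs, 1.87 to 3.03 in pre-HSCs, and 0.495 and 1.9 in BM HSCs. Tspo2, an erythroid membrane protein, was at 28.9 and 13.7 FPKM in FL HSCs, listed at 0 in the pre-HSC libraries, and at 0.333 and 2.74 in BM HSCs. It entered the test only through FL HSCs, so its call is a description.

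Enzymes of heme synthesis were called in part. Cpox (coproporphyrinogen oxidase) was at 120 and 111 FPKM in FL HSCs, 8.69 to 9.85 in pre-HSCs, and 16.2 and 21.7 in BM HSCs (log2 difference 3.03, SE 0.31, limma's adjusted p = 0.000109). Alad, Urod and Fech, which act before or after it, were also called high, with log2 differences of 1.52, 1.33 and 1.24, and Fech lost its call without FL replicate 1. Uros and Ppox of the same pathway were not called, with 0.44 and 0.06 as log2 differences. Alas2, the erythroid form of the enzyme of the first step, was at 1.81 and 0.811 FPKM in FL HSCs and 1.71 to 2.43 in pre-HSCs, and it was listed at 0 in both BM libraries. Globins of mature cells differed among themselves. Hba-a1 was at 68.7 and 15 FPKM in FL HSCs, 43.3 to 71.2 in pre-HSCs, and 0 and 0.195 in BM HSCs, and was not called. Hbb-b2 was called high (3.43, SE 0.29, limma's adjusted p = 3.49e-05). It was at 76.6 and 61.8 FPKM in FL HSCs, 8.07 to 12.7 in pre-HSCs, and 2.01 and 3.28 in BM HSCs. Hbb-b1 was at 53.1 and 18.3 FPKM in FL HSCs, 6.87 to 15.3 in pre-HSCs, and 0.0832 and 2.95 in BM HSCs, and it lost its call without FL replicate 1 or BM replicate 1. Slc4a1, the band 3 anion exchanger of mature red cells, was at 7.29 and 1.81 FPKM in FL HSCs and was not called. The erythroid count was 23 without FL replicate 1 and 26 without FL replicate 2, and 25 with FPKM scaled to equal totals. The 5 erythroid markers Klf1, Alas2, Hba-a1, Hbb-b1 and Slc4a1 summed to 238 and 103 FPKM in FL HSCs, 56.2 to 89.9 in pre-HSCs, and 5.8 and 14.2 in BM HSCs. They summed to 435 and 496 FPKM in Endo and 500 and 632 in HE, above both FL libraries. Most of this was Hba-a1, at 393 to 559 FPKM in Endo and HE, while Klf1 was at 4.13 to 9.06 there. Whether a few cells hold these transcripts or many hold them at a low level cannot be told apart in bulk samples, nor can fewer cells of a type from less RNA per cell.

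Several motifs were sought in promoters, and the erythroid promoters shown were chosen after matches were seen, because they hold a short GATA motif. RefSeq promoter sequences (GRCm38.p6, 250 bases before to 50 after the start of a gene) were found for 9703 of the 14708 tested genes (66%), so shares hold only for these. The letters AGATAA or TGATAA stood on either strand of at least 1 listed promoter in 10 of the 18 called erythroid genes with a sequence (55.6%), in 12.4% of all tested genes with one, in 16.2% of the genes called high and in 11.6% of those called low. The CCACACCC box bound by KLF1 stood in 0 of the 18 and in 4.49% of all, and the CCAAT box in 10 of the 18 (55.6%) and in 42.9% of all. Erythroid genes that were not called were not counted. The shares thus do not separate being erythroid from being high in FL HSCs. A match is a run of letters, not a bound site. In the promoters of Klf1 (chr8:84901732-84902031, plus strand), Ermap (chr4:119189946-119190245, minus strand), Rhd (chr4:134864286-134864585, plus strand), Epor (chr9:21963527-21963826, minus strand) and Cpox (chr16:58669958-58670257, plus strand), written 5′ to 3′ along the gene's strand, capitals mark the GATA letters or their reverse complement.
Klf1: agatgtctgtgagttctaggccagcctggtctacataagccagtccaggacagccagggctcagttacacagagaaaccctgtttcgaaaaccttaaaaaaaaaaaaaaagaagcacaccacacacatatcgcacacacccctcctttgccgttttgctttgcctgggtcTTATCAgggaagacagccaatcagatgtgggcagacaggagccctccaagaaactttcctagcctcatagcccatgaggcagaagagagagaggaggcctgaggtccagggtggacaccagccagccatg
Ermap: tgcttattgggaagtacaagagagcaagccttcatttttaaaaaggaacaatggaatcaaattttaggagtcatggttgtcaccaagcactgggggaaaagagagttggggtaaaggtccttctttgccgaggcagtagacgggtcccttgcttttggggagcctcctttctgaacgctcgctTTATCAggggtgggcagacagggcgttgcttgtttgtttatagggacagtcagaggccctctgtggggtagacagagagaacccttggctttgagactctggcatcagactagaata
Rhd: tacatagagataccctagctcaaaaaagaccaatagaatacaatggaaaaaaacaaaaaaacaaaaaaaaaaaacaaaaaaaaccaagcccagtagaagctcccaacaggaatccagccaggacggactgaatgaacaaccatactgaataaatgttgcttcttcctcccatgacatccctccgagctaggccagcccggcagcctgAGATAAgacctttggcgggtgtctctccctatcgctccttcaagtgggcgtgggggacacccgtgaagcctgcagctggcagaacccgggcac
Epor: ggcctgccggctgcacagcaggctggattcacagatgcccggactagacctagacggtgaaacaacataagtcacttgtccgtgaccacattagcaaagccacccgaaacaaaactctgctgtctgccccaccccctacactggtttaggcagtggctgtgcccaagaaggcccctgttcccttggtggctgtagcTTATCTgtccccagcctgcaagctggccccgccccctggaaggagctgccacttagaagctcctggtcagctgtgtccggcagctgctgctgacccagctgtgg
Cpox: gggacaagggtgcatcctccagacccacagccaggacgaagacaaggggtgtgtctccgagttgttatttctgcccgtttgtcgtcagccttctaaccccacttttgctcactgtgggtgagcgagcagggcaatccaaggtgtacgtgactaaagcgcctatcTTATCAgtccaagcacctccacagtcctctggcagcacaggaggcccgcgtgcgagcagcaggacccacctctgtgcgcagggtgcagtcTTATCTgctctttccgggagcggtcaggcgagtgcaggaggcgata
In Klf1, Ermap, Rhd and Epor the letters began at position -80, -67, -43 and -54 from the start site, and in Cpox at -86 and 4.

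Of 22 listed genes of granulocyte and mast cell granules, 18 passed the filter on low values and 14 were called high and none low. However, 7 of the 14 (Camp, Cebpe, Ctsg, Epx, Fcnb, Ltf and Prg2) passed the filter only through FL HSCs and had to differ, so the count is a description and its share is no support. The 7 others were Elane, Hdc, Mpo, Ms4a3, Prtn3, S100a8 and S100a9. Mpo, the myeloperoxidase of primary granules, was at 190 and 160 FPKM in FL HSCs, 15.9, 22.6 and 21.7 in pre-HSCs, and 10.6 and 8.89 in BM HSCs (3.55, SE 0.18, limma's adjusted p = 2.89e-06). Elane and Ctsg, proteases of the same granules, were at 48.3 and 44.4 and at 27 and 24.1 FPKM in FL HSCs. Elane stayed at or below 0.222 FPKM in pre-HSCs and was at 8.81 and 1.99 in BM HSCs, and Ctsg was listed at 0 in the pre-HSC libraries with 1.84 and 0.934 in BM HSCs. S100a8, a calcium-binding protein abundant in neutrophils, was at 129 and 104 FPKM in FL HSCs, 0.307, 1.55 and 1.85 in pre-HSCs, and 16.5 and 13 in BM HSCs (4.34, SE 0.28, adjusted p = 1.09e-05 by limma). Both FL libraries were nearly level in these genes, and the BM libraries were the nearer neighbors for the S100 gene and the pre-HSC libraries for Mpo.

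Prg2 and Epx, of eosinophil granules, were among those that entered the test only through FL HSCs. Prg2, the eosinophil major basic protein, was at 49.4 and 13.9 FPKM in FL HSCs, 0.128 in pre-HSC replicate 1 with the other pre-HSC libraries listed at 0, and 0.166 and 0.2 in BM HSCs. Epx, eosinophil peroxidase, was at 3.79 and 2.23 FPKM in FL HSCs and was listed at 0 in all 5 others. The 6 granulocyte markers Mpo, Elane, Prtn3, Ctsg, S100a8 and S100a9 summed to 588 and 491 FPKM in FL HSCs, 29.9 to 44 in pre-HSCs, and 106 and 98.1 in BM HSCs, and the part of other cells within the gate was not tested.

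Macrophage and hepatocyte genes differed between the FL libraries. The 5 macrophage markers Csf1r, Emr1, C1qa, C1qb and Cd68 summed to 248 and 36.5 FPKM in FL replicates 1 and 2, 146 to 923 in pre-HSCs, and 6.43 and 4.46 in BM HSCs. C1qb, a complement subunit made by tissue macrophages, was at 101 and 10.9 FPKM in FL HSCs, 171, 58.2 and 389 in pre-HSCs, and 1.74 and 1.34 in BM HSCs, and none of 17 tested macrophage genes was called in either direction (1 was called high without FL replicate 2). By limma, the log2 difference for C1qb was 0.79 (SE 0.81) with an adjusted p of 0.474. Marco and Cd5l, which encode a scavenger receptor and a secreted protein of macrophages, were an exception among the leading genes, since pre-HSCs were low in both. Marco was at 48.4 and 8.36 FPKM in FL HSCs, 0.0564 to 0.63 in pre-HSCs, and 0.0139 and 0.0537 in BM HSCs. Cd5l was at 90.7 and 13.6 FPKM in FL HSCs, 1.03 to 1.63 in pre-HSCs, and 0.432 and 0.638 in BM HSCs (4.27, SE 0.54, limma's adjusted p = 0.000345). FL replicate 1 was several-fold above replicate 2 in both, as in the whole marker list, and Marco reached 1 FPKM in the FL libraries only.

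Of 21 listed hepatocyte genes 11 passed the filter, and of these only Alb was called high. Alb, serum albumin, was at 10.8 and 2.7 FPKM in FL HSCs, 0.0169, 1.08 and 0.0455 in pre-HSCs, and 0.0135 and 0.026 in BM HSCs (2.52, SE 0.48, limma's adjusted p = 0.00322). Its call was lost when any of 7 single libraries was left out: Endo replicate 1 or 2, pre-HSC replicate 1 or 3, FL replicate 1, or BM replicate 1 or 2. The 5 hepatocyte markers Alb, Afp, Ttr, Apoa1 and Fgb summed to 31 and 7.64 FPKM in FL HSCs, 3.12 to 25.9 in pre-HSCs, and 2.56 and 3.88 in BM HSCs. FL replicate 1 had again the higher sum, and the part of liver cells in other differences was not tested.

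**Figure D3:**
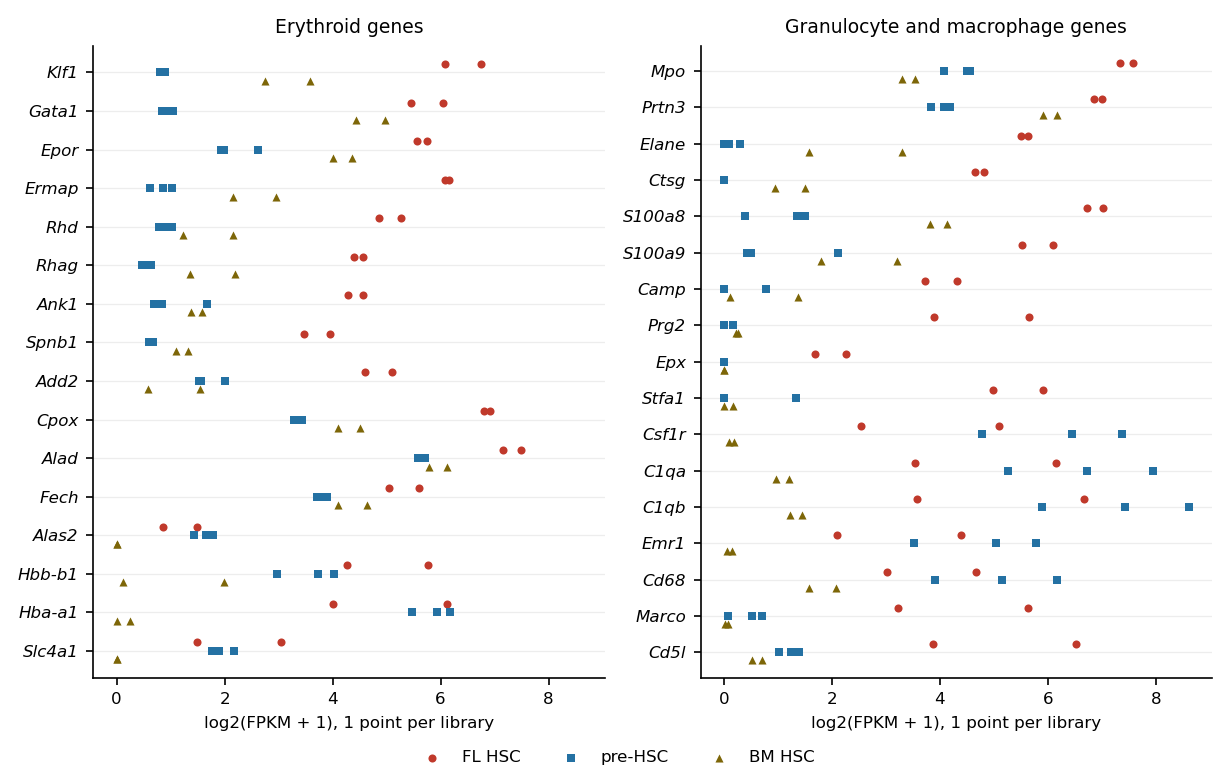
Erythroid genes (left) and granulocyte and macrophage genes (right), with log2(FPKM + 1) on the x axis and 1 point per library (red circles FL HSC, blue squares pre-HSC, brown triangles BM HSC). Both FL libraries lie above the others for the called genes Klf1 to Fech and Mpo to Stfa1, as a call requires. Alas2, Hba-a1 and Slc4a1 and the macrophage genes from Csf1r to Cd68 overlap with pre-HSCs.

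Some early lymphoid genes were called high in FL HSCs. Of 31 listed lymphoid priming genes 16 passed the filter, and 6 of these were called high and none low. Ikzf1, the Ikaros factor required for lymphoid potential, was at 126 and 176 FPKM in FL HSCs, 13.9, 13.7 and 14 in pre-HSCs, and 53.3 and 64.3 in BM HSCs (log2 difference 2.33, SE 0.31, limma's adjusted p = 0.000465). Flt3, the receptor CD135 of multipotent progenitors, was at 16.8 and 23.3 FPKM in FL HSCs, 2.68 to 3.7 in pre-HSCs, and 13.3 and 10.7 in BM HSCs (1.51, SE 0.19, adjusted p = 0.000383 by limma). Its protein was an exclusion in the methods' BM gate and not in the FL gate. Satb1, a chromatin organizer of lymphoid progenitors, was at 10.2 and 14.8 FPKM in FL HSCs, 4.52 to 4.87 in pre-HSCs, and 3.47 and 3.15 in BM HSCs. Ltb (lymphotoxin beta) and Bcl11a were called as well, but Ltb was at 108 and 118 FPKM in FL HSCs, 6.23 to 8.53 in pre-HSCs, and 97.5 and 102 in BM HSCs, a log2 difference of only 0.18 from BM HSCs. Ltb and Bcl11a were not called after quantile normalization or scaling to equal totals. Cd79a, Il7r, Rag1 and Cd3e stayed below 0.5 FPKM in all FL, pre-HSC and BM libraries. Ebf1 was at 0.0574 and 0.154 FPKM in FL HSCs and 2.83 to 3.99 in pre-HSCs, and was listed at 0 in both BM libraries. It was thus lower in FL HSCs than in pre-HSCs, and it was not called.

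Of 60 tested ribosome biogenesis genes, 18 were called high and none low, 41 had both FL libraries above the 5 others (15.9% of all genes did), and the median log2 difference was 0.76. Rrp9, of the U3 complex that processes ribosomal RNA, was at 123 and 86.5 FPKM in FL HSCs, 28.8, 37.2 and 26.7 in pre-HSCs, and 43.9 and 38.1 in BM HSCs (1.52, SE 0.17, limma's adjusted p = 0.000202). Gar1, a component of pseudouridylation complexes, was at 377 and 310 FPKM in FL HSCs, 85.4 to 109 in pre-HSCs, and 184 and 210 in BM HSCs. Lyar and Noc4l, nucleolar proteins, had log2 differences of 1.28 and 1.34. The count was 6 with FPKM scaled to equal totals, 7 after quantile normalization and 9 without FL replicate 1, while the list median stayed at 0.57, 0.63 and 0.77.

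Serine and one-carbon metabolism, which supplies methyl groups and carbon for nucleotides, held 9 high calls among 21 tested genes and none low, with a median log2 difference of 0.79. Mthfd1, the folate enzyme of the cytosol, was at 125 and 104 FPKM in FL HSCs, 22.2, 22.1 and 22.4 in pre-HSCs, and 44.5 and 59.7 in BM HSCs (1.72, SE 0.13, limma's adjusted p = 2.04e-05). Phgdh, the first enzyme of serine synthesis, was at 271 and 186 FPKM in FL HSCs, 46.5 to 52.3 in pre-HSCs, and 101 and 137 in BM HSCs. Mthfd2, the folate enzyme of mitochondria, was at 30.4 and 31 FPKM in FL HSCs, 9.72 to 12.5 in pre-HSCs, and 10.3 and 8.61 in BM HSCs. Psat1, Psph, Shmt1, Shmt2, Mthfd1l and Ahcy were the other calls, so the 3 enzymes from Phgdh to serine were all called high. Without FL replicate 1 the count was 5, since Psat1, Psph, Shmt1 and Ahcy lost their calls, and Psat1 and Psph were also not called after scaling to equal totals.

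Of 23 tested genes of purine and pyrimidine synthesis, 6 were called high, among them Gart, at 137 and 115 FPKM in FL HSCs, 42.1 to 42.9 in pre-HSCs, and 63.8 and 79.8 in BM HSCs, and Cad, at 99.2 and 78.8 FPKM in FL HSCs, 23.2 to 29.7 in pre-HSCs, and 52.8 and 70.7 in BM HSCs. No gene of this list was called after scaling to equal totals or quantile normalization, and 2 were called without FL replicate 1. Among 52 tested DNA replication genes, 8 were called high, 37 had both FL libraries above the 5 others, and the median was 0.67. Cdc6, which loads the replicative helicase, was at 38 and 34.7 FPKM in FL HSCs, 14.9, 13.4 and 15.1 in pre-HSCs, and 13.5 and 13.2 in BM HSCs (1.33, SE 0.12, limma's adjusted p = 4.43e-05). Fen1, the flap nuclease of lagging strand synthesis, was at 186 and 128 FPKM in FL HSCs, 49.3 to 56.2 in pre-HSCs, and 60.9 and 65 in BM HSCs (1.41, SE 0.15, adjusted p = 0.000126 by limma). Ccne1, cyclin E1 of S phase entry, was at 46.3 and 31.1 FPKM in FL HSCs, 14.1 to 15.7 in pre-HSCs, and 4.23 and 11.3 in BM HSCs. The replication count was 3 after scaling to equal totals and 14 without FL replicate 2.

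Of 52 tested mitotic spindle genes, 3 were called high, near the 3.32% of all genes, and the list median was 0.11 against pre-HSCs and 0.90 against BM HSCs. Aurka, a mitotic kinase, was at 72.5 and 49.9 FPKM in FL HSCs, 45.1, 39.2 and 49.4 in pre-HSCs, and 18.9 and 13.2 in BM HSCs. FL replicate 2 was thus barely above the highest pre-HSC library, and Aurka was not called without FL replicate 1 or under either other scaling. The count of mitotic calls was 1 without FL replicate 1 and 13 without FL replicate 2.

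Among 25 tested glycolysis genes 6 were called high, including Pfkl, at 188 and 148 FPKM in FL HSCs, 54.7 to 65.6 in pre-HSCs, and 88.5 and 105 in BM HSCs, and the lactate carriers Slc16a1 and Slc16a3, with log2 differences of 1.27 and 1.89. For Slc16a3 the log2 difference was only 0.65 from pre-HSCs and 3.14 from BM HSCs. In Endo and HE it was at 120 to 189 FPKM, above both FL libraries. Pfkl was not called without FL replicate 1 or under either other scaling. The glycolysis count was 2 without FL replicate 1 and 2 after scaling to equal totals. Mitochondrial ribosome genes numbered 2 calls of 71, respiratory chain genes 2 of 73, aminoacyl-tRNA synthetases 2 of 22 and translation factors 1 of 40, and none of 33 proteasome genes was called. Except for the synthetases, these shares are below the 3.32% of all genes called high. Both FL libraries lay above the others in 42 of the 71 mitochondrial ribosome genes and 19 of the 22 synthetases, where 15.9% of all genes did. Their medians were 0.58 and 0.74, and 0.40 and 0.56 after scaling to equal totals. None of these 4 lists kept a call after scaling to equal totals, and none did without FL replicate 1.

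**Figure D4:**
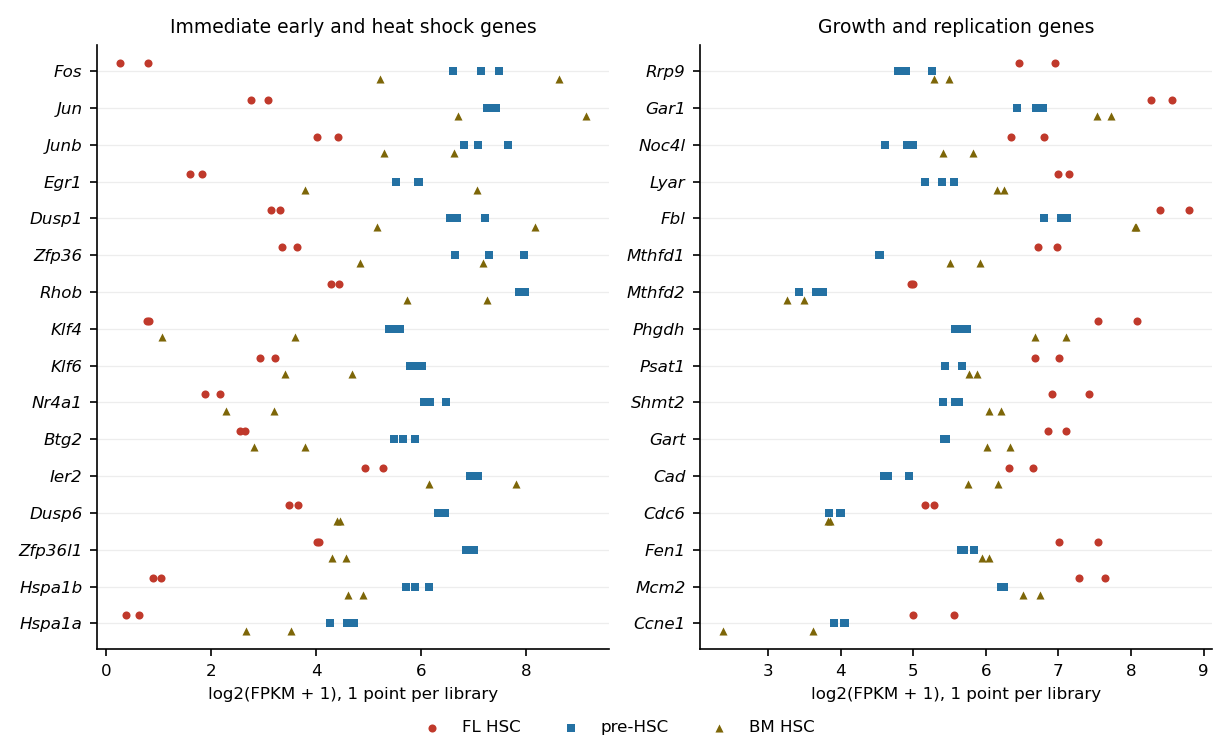
Immediate early and heat shock genes (left) and growth and replication genes (right), with log2(FPKM + 1) on the x axis and 1 point per library (red circles FL HSC, blue squares pre-HSC, brown triangles BM HSC). All genes shown were called, so by the rule the FL libraries lie lowest on the left and highest on the right. The 2 BM libraries are far apart in most immediate early genes.

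Immediate early genes, which cells switch on within minutes of a stimulus and also during tissue dissociation, were the largest group of low calls. Fetal liver was dissociated mechanically and pre-HSC, Endo and HE tissue with collagenase, and the part of this in these genes was not tested. Of 42 tested genes, 17 were called low and none high, against 3.37% low among all genes, and the median log2 difference was -1.54. Fos, a subunit of the AP-1 factor, was at 0.213 and 0.741 FPKM in FL HSCs, 140, 96.5 and 177 in pre-HSCs, and 390 and 36 in BM HSCs (log2 difference -6.45, SE 0.71, limma's adjusted p = 0.000175). Jun, its partner, was at 5.8 and 7.5 FPKM in FL HSCs, 151, 171 and 161 in pre-HSCs, and 558 and 103 in BM HSCs (-4.7, SE 0.48, adjusted p = 0.000109 by limma). Egr1 was at 2.04 and 2.55 FPKM in FL HSCs, 60.9, 44.7 and 60.6 in pre-HSCs, and 133 and 12.9 in BM HSCs. Both FL libraries were near the bottom, and BM replicate 1 was several times BM replicate 2 in these 3 genes. The Endo and HE libraries, with Fos at 20.6 to 63.6 FPKM, also lay above both FL libraries.

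The low group went beyond AP-1. Zfp36, which degrades cytokine messages, was at 9.23 and 11.4 FPKM in FL HSCs, 156, 99 and 248 in pre-HSCs, and 143 and 27.7 in BM HSCs. In Endo and HE it was at 11.4 to 14.9 FPKM, close to FL HSCs. Rhob, a small GTPase, was at 20.6 and 18.4 FPKM in FL HSCs, 232 to 249 in pre-HSCs, and 152 and 52.3 in BM HSCs (-2.85, SE 0.31, limma's adjusted p = 0.000161). Dusp6, a phosphatase of ERK kinases, was at 11.6 and 10.2 FPKM in FL HSCs, 78.5 to 86.8 in pre-HSCs, and 20.8 and 20.1 in BM HSCs, so its BM libraries were level. Across the immediate early list the median difference was -2.77 from pre-HSCs and -0.48 from BM HSCs. The count of low calls ranged from 13 to 22 when single libraries were left out, and it was 9 with no filter on low values, where Fos, Junb, Egr1, Dusp1, Zfp36, Klf4 and Ier2 were not called. Egr1 was not called after quantile normalization or without Endo replicate 1 or 2, pre-HSC replicate 1 or 3, or either FL library, and Dusp1 not without these or either HE library.

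Dusp1, the phosphatase that ends MAP kinase signals, was at 7.81 and 9 FPKM in FL HSCs, 102, 92.9 and 148 in pre-HSCs, and 285 and 34.6 in BM HSCs (-3.51, SE 0.6, limma's adjusted p = 0.0019). Its promoter (chr17:26508423-26508722 of GRCm38.p6, minus strand, from RefSeq) is shown because it holds the full cAMP response element TGACGTCA, in capitals. This element stood in 3 of the 14 called immediate early genes with a promoter sequence (21.4%) and in 3.57% of all tested genes with one. It stood in 1.79% of the genes called low and in 2.06% of those called high. Immediate early genes that were not called were not counted. The shares thus do not separate being immediate early from being low in FL HSCs.
Dusp1: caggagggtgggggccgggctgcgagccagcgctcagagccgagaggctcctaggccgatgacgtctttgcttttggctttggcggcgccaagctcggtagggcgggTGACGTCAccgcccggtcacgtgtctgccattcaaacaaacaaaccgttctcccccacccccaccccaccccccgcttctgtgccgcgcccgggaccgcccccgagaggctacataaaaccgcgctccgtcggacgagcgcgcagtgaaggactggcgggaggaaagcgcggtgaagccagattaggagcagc
The element began at position -143 from the start site.

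Heat shock genes were called in both directions. The inducible chaperones Hspa1b and Hspa1a were at 0.853 and 1.06 and at 0.541 and 0.308 FPKM in FL HSCs. Hspa1b was at 51, 69.5 and 58.3 FPKM in pre-HSCs and 28.6 and 23.5 in BM HSCs (-4.36, SE 0.29, limma's adjusted p = 1.11e-05), and Hspa1a at 18.2 to 25.2 in pre-HSCs and 10.5 and 5.33 in BM HSCs. These 2 genes are near-identical neighbors and their reads may have been split. The small heat shock gene Hspb1 was listed at 0 in both FL libraries and was at 10.7 to 12.2 FPKM in pre-HSCs and 0.561 and 1.47 in BM HSCs. Hspd1, the mitochondrial chaperonin, was called high, at 360 and 442 FPKM in FL HSCs, 138 to 177 in pre-HSCs, and 171 and 187 in BM HSCs. In all, 5 of 31 tested chaperone genes were called low and 3 high.

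Of 36 tested genes of NF-kB and the inflammatory response, 5 were called low and 1 high. Nfkbia, the inhibitor that NF-kB itself induces, was at 12.5 and 13.2 FPKM in FL HSCs, 50.4, 48.2 and 90.7 in pre-HSCs, and 37.8 and 48.6 in BM HSCs (-1.91, SE 0.24, limma's adjusted p = 0.000366). Tnfaip3, another such feedback inhibitor, was at 1.6 and 1.58 FPKM in FL HSCs, 7.44 to 22 in pre-HSCs, and 5.29 and 4.82 in BM HSCs. Tnfaip3 was also at 1.05 to 1.6 FPKM in Endo and HE, so the neighbors were the high ones. Ccl3, a chemokine, was at 0 and 0.532 FPKM in FL HSCs, 18.1 to 96.3 in pre-HSCs, and 4.56 and 0.729 in BM HSCs. Ccl3 had the same order over the pre-HSC libraries as the macrophage markers, which summed to 428, 146 and 923 FPKM there, and their part in it was not tested. The count of low calls was 8 without FL replicate 2.

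Among the other leading low genes, Npdc1, a neural membrane protein gene, had the tightest groups. It was at 0.878 and 0.537 FPKM in FL HSCs, 32.4, 36.8 and 35 in pre-HSCs, and 29.1 and 27.5 in BM HSCs (log2 difference -4.25, SE 0.14, limma's adjusted p = 7.07e-07), and at 28.6 to 37.1 in Endo and HE. It was thus at a like level in the 9 other libraries and near the bottom in both FL libraries. Bgn, the matrix proteoglycan biglycan, was at 1.7 and 0.63 FPKM in FL HSCs, 97.5 to 110 in pre-HSCs, and 16.5 and 25 in BM HSCs. Ptn, the growth factor pleiotrophin, was at 0.556 and 1.57 FPKM in FL HSCs, 52.4 to 112 in pre-HSCs, and 11.7 and 13.3 in BM HSCs. Rgs1, which dampens G protein signals, was at 0.343 and 0.653 FPKM in FL HSCs, 4.33 to 20.7 in pre-HSCs, and 92 and 52.2 in BM HSCs. In Endo and HE it was at 0 to 0.102 FPKM, below both FL libraries, so the neighbors were the high ones.

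The small nucleolar RNA genes Snora31 and SNORA77 were listed at 0 in both FL libraries. Snora31 was at 32.7, 157 and 129 FPKM in pre-HSCs and 361 and 98.3 in BM HSCs, and SNORA77 at 133, 30.3 and 70.2 in pre-HSCs and 213 and 68.1 in BM HSCs. Both genes are shorter than the average fragment of the libraries, and these were made from poly(A) RNA, so these values are uncertain. BC042782, a noncoding gene on the strand opposite to Jun, overlaps it on chromosome 4 (NCBIM37, Jun 94715725 to 94718913, BC042782 from 94718225), and since the library kit did not mark strand, its low values cannot be told apart from those of Jun.

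Of 25 tested CDK inhibitor and quiescence genes, 6 were called low and none high, 12 had both FL libraries below the 5 others (10.1% of all genes did), and the median was -0.82. Btg1, an antiproliferative factor, was at 6.55 and 4.38 FPKM in FL HSCs, 51.9, 47.9 and 56.5 in pre-HSCs, and 15.6 and 10.8 in BM HSCs (log2 difference -2.1, SE 0.18, limma's adjusted p = 4.04e-05). Cdkn2c, the inhibitor p18, was at 2.63 and 2.11 FPKM in FL HSCs, 3.73 to 9.19 in pre-HSCs, and 15.2 and 11.6 in BM HSCs. In Endo and HE it was at 0.919 to 1.75 FPKM, below FL HSCs. Rb1, the retinoblastoma protein, was at 1.1 and 0.264 FPKM in FL HSCs, 7.49 to 9.72 in pre-HSCs, and 6.56 and 1.21 in BM HSCs, and its call was lost without FL replicate 2 and after quantile normalization. Klf4, Nr4a1 and Btg2 belong to the immediate early list as well, and the count was 3 after quantile normalization.

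Among 21 tested megakaryocyte and platelet genes 5 were called low and none high, with a median of -0.12 against pre-HSCs and -1.81 against BM HSCs. Vwf, von Willebrand factor, which endothelium and platelet-primed HSCs also make, was at 12.1 and 15 FPKM in FL HSCs, 162, 164 and 197 in pre-HSCs, and 55.9 and 44.3 in BM HSCs (-2.7, SE 0.36, limma's adjusted p = 0.000487). Cd9, a tetraspanin, was at 38.3 and 35 FPKM in FL HSCs, 124 to 153 in pre-HSCs, and 147 and 156 in BM HSCs. Mmrn1, multimerin of platelet granules, was at 11.3 and 19.7 FPKM in FL HSCs, 43.9 to 60.8 in pre-HSCs, and 57.6 and 61.3 in BM HSCs, and Ppbp at 1.14 and 1.6, 12.8 to 17.9, and 7.64 and 7.97. Without FL replicate 1 the count was 8. The 5 megakaryocyte markers Pf4, Itga2b, Gp9, Gp1bb and Ppbp summed to 181 and 72.5 FPKM in FL HSCs, 105 to 273 in pre-HSCs, and 807 and 766 in BM HSCs.

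Few stem cell regulators were called. Of 36 tested genes of HSC transcription and self-renewal, Gfi1 was called high and Egr1 and Vwf low. Gfi1, a repressor that restrains HSC division, was at 45.2 and 69.4 FPKM in FL HSCs, 11.3, 24.2 and 13.8 in pre-HSCs, and 10.4 and 3.53 in BM HSCs (log2 difference 2.39, SE 0.41, limma's adjusted p = 0.00204). Gata2, in contrast, was at 76.4 and 66.5 FPKM in FL HSCs, 27.2 to 29.9 in pre-HSCs, and 168 and 181 in BM HSCs. Hlf was at 58.1 and 91.7 FPKM in FL HSCs, 5.95 to 10.1 in pre-HSCs, and 102 and 104 in BM HSCs. For both the FL libraries fell in the gap between the neighbors.

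Genes of fetal identity had 1 high and 2 low calls among 25, with a median of -0.60 against pre-HSCs and 1.93 against BM HSCs. Hmga1, a chromatin protein of dividing fetal cells, was at 819 and 695 FPKM in FL HSCs, 191, 227 and 201 in pre-HSCs, and 140 and 173 in BM HSCs (2.07, SE 0.15, limma's adjusted p = 1.86e-05). Lin28b, which blocks let-7 processing, was at 6.7 and 12.6 FPKM in FL HSCs, 7.9 to 9.09 in pre-HSCs, and 0.629 and 0.16 in BM HSCs, and was not called. Dnmt3b, a de novo DNA methyltransferase and 1 of 2 high calls among 40 chromatin regulators, was at 94.2 and 99.3 FPKM in FL HSCs, 23.2 to 30.5 in pre-HSCs, and 40.7 and 34.1 in BM HSCs (1.6, SE 0.15, adjusted p = 5.64e-05 by limma).

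Endothelial and matrix genes gave few calls. Of 31 tested pan-endothelial genes 2 were called low, and the median was -3.75 against pre-HSCs and 0.38 against BM HSCs. Tie1, an endothelial receptor kinase, was at 46.1 and 53.1 FPKM in FL HSCs, 257 to 286 in pre-HSCs, and 66.7 and 71.3 in BM HSCs. Of 31 matrix genes 3 were called low, among them Col1a2, at 1.98 and 1.49 FPKM in FL HSCs, 46.6 to 102 in pre-HSCs, and 7.77 and 6.38 in BM HSCs. The 6 endothelial markers Cdh5, Pecam1, Esam, Kdr, Tek and Cldn5 summed to 81.9 and 91.9 FPKM in FL HSCs, 1482 to 1643 in pre-HSCs, and 91.6 and 83.3 in BM HSCs.

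Adhesion genes were called in both directions. Of 30 tested integrin and adhesion genes, 6 were called low and 4 high. Itga6, the integrin alpha 6 chain that binds laminin, was at 25 and 32 FPKM in FL HSCs, 154 to 179 in pre-HSCs, and 75 and 80 in BM HSCs (log2 difference -1.98, SE 0.13, limma's adjusted p = 1.09e-05). F11r, a junctional adhesion molecule, was at 9.89 and 13.3 FPKM in FL HSCs, 72.4 to 83.8 in pre-HSCs, and 23.8 and 27.4 in BM HSCs. On the high side, Itgal, of the leukocyte integrin LFA-1, was at 25.1 and 11.8 FPKM in FL HSCs, 3.09 to 8.54 in pre-HSCs, and 2.19 and 3.81 in BM HSCs, and its partner chain Itgb2 at 27 and 21.8, 4.49 to 6.31, and 14.8 and 20.1. Neither was called without FL replicate 1, when 2 of the 4 high calls were left.

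Interferon and class I genes gave 2 low calls of 45 and 1 of 24, near the 3.37% of all genes. Rsad2, an antiviral protein induced by interferon, was at 0.672 and 1.43 FPKM in FL HSCs, 5.66 to 8.76 in pre-HSCs, and 4.21 and 3.63 in BM HSCs. H2-Q7, a class I gene, was at 0.199 and 0.535 FPKM in FL HSCs, 0.985 to 2.74 in pre-HSCs, and 115 and 137 in BM HSCs, so its call rests on the difference from BM HSCs, and it was not called after quantile normalization. Class I genes differ between mouse strains and share sequence, so single values are uncertain. Of 37 tested cytokine receptor genes, 3 were called high and 2 low, with Epor and Flt3 described above among the high ones. Of 33 cholesterol and fatty acid genes Scd1 was called high and Sc4mol and Insig1 low, and both low calls were lost without FL replicate 1 or BM replicate 2. Mcoln1 was the single call, low, among 33 lysosome genes, and none of 18 clock genes was called.

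**Figure D5:**
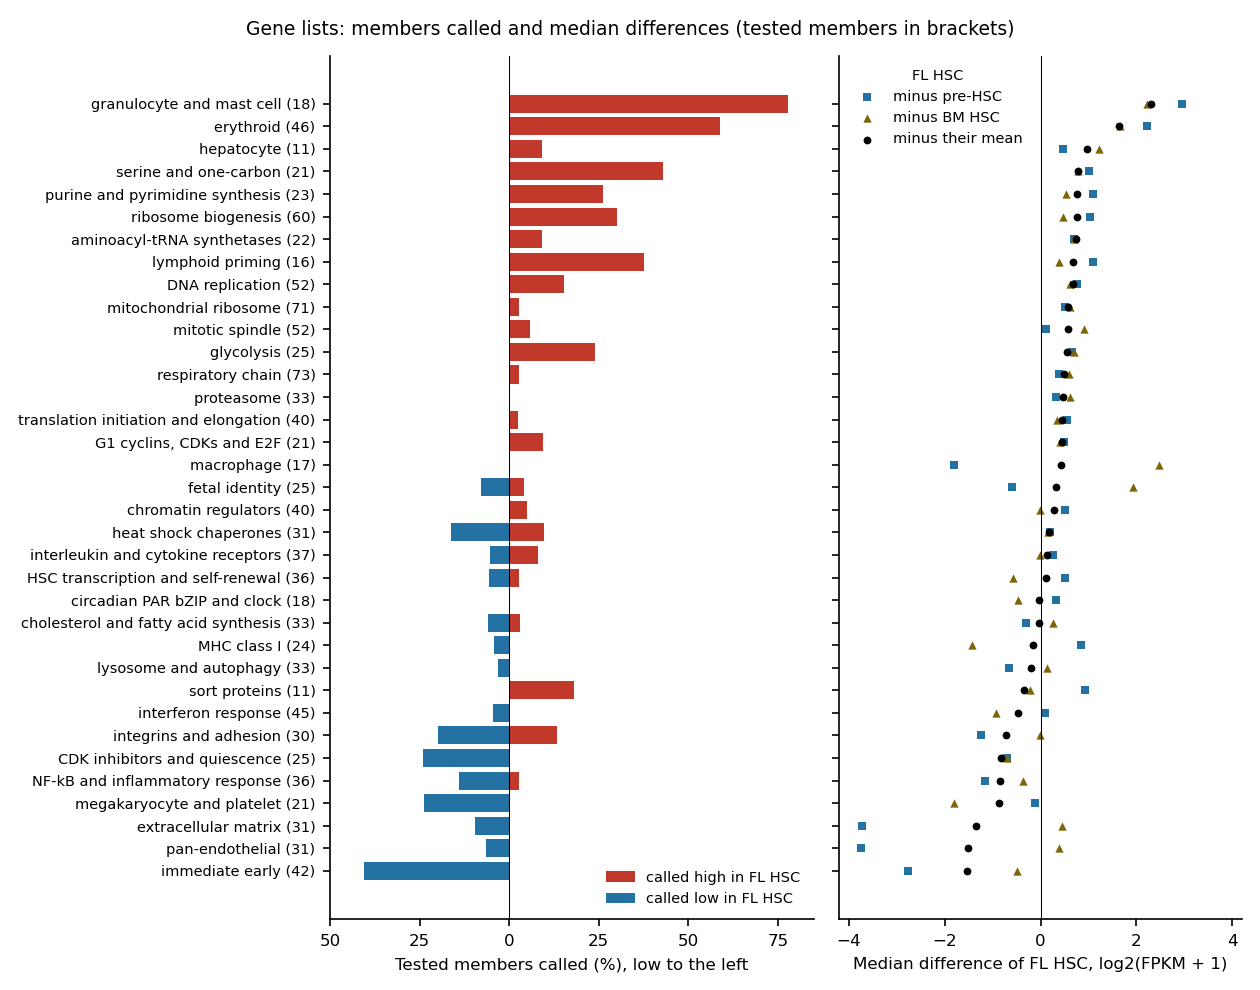
The 35 gene lists ordered by their median difference, with the percent of tested members called high (red, right) or low (blue, left) in FL HSCs in the left panel, and the list median of FL HSC minus pre-HSC (blue squares), minus BM HSC (brown triangles) and minus the mean of the 2 (black circles) in log2(FPKM + 1) in the right panel. Among tested members, 14 of 18 granulocyte genes and 27 of 46 erythroid genes were called high, and 17 of 42 immediate early genes low. Of the high calls, 7 granulocyte genes and 1 erythroid gene passed the filter only through FL HSCs.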

How the data were processed

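RNA-seq was made from poly(A) RNA of sorted cells, pooled from several embryos or mice per library, with a kit that does not mark strand. The authors deposited FPKM per Ensembl gene for each library; which tool made them was not given in any source used here, while the labels and methods name TopHat with the mm9 genome, uniquely mapped reads, Subread featureCounts, Cufflinks and edgeR without versions. Of 37820 gene IDs, 37038 (97.9%) were named from the mouse annotation of the same build (NCBIM37), and 782 stayed without a symbol. Where a symbol had several IDs, the one with the highest mean was kept.

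Genes with at least 1 FPKM in at least 2 of the 11 libraries were kept. Their log2(FPKM + 1) values were fitted with limma 3.58.1 (R 4.3.3), with a factor for the 5 populations and a mean-variance trend, and FL HSC was contrasted with the mean of pre-HSC and BM HSC. A gene was called at 2-fold with adjusted p under 0.05, F test adjusted p under 0.01 and no overlap. P-values were adjusted over all genes tested by limma's Benjamini-Hochberg method. The fit was checked on simulated data. Gene lists are described by counts and medians with no set test, and several genes belong to more than 1 list.

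The genes named were the 12 leading genes of each direction, up to 4 called members of each list with the largest difference (the most abundant member where none was called), and the genes of the proteins used for sorting. Leading genes needed a mean of at least 10 FPKM in FL HSCs (high) or in both pre-HSCs and BM HSCs (low). Marker genes were also given, and every other gene named was chosen after its values were seen. The comparison, the lists and the rule were chosen with earlier results of these data known. Promoters came from RefSeq (GRCm38.p6) and were matched by symbol. Alternatives were pseudocounts of 0.1 and 0.5, no filter, quantile normalization, scaling to equal totals, a replicate block, other samples in the fit, other call rules, 145 genes with a lone 0 left out, and each library left out in turn. Depth cannot be had from the FPKM, so no precision from counting is given. No comparison columns of the authors were used. A few genes that these rules or lists include are not reported here.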

Additional observations from a re-analysis of the deposited data

How the results depend on the processing

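No gene named as called changed direction under any setting tried. High and low calls numbered 488 and 495, with 174 calls over the 35 lists. Leaving out 1 library in turn gave 332 to 691 high and 458 to 779 low calls, 137 to 234 list calls, 2335 to 3588 genes with both FL libraries above and 1473 to 2931 with both below, where the extremes of the high calls came from FL replicates 1 and 2. Without FL replicate 1, 262 of the high and 371 of the low calls remained, and without FL replicate 2, 398 and 419. Scaling FPKM to equal totals gave 299 high calls, and 651 low calls of which 485 were among the 495, and 43 of 215 calls among list members and other named genes were lost. Quantile normalization gave 459 and 427 calls with 48 of those 215 lost, and no filter on low values, with 37820 genes tested, gave 373 and 361 calls and 133 list calls, with 51 of the 215 lost. With the 5 other libraries pooled as 1 group the fit called 4 genes high, 4 low and 2 in the lists, since the difference between pre-HSCs and BM HSCs is then part of the residual spread. Calls required against each population numbered 223 high, 171 low and 89 in the lists. A gap of at least 1.5-fold between the nearest libraries left 258 high, 211 low and 98 list calls, and 321 genes above and 243 below. Same-numbered libraries did not deviate together (correlations from -0.155 to 0.115), so the numbers were not taken as pairs; a fit with the replicate number as a block called 488 high and 470 low, 450 of each shared. With the BM HSC numbers crossed, an alternative chosen after seeing the data, the block fit called 501 high and 490 low. An unadjusted p under 0.05 with 2-fold, also added later, gave 532 and 561. Genes that reach 1 FPKM in the FL libraries only leave the test when either is left out, so their loss there says nothing of stability. With 2 libraries of FL HSCs, and depth unknown, the spread of low genes is the least certain.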

Other observations

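Several gene groups outside the lists were also called, and all genes here were chosen after their values were seen. Metallothioneins, which bind zinc and copper, were high together, with Mt1 at 375 and 254 FPKM in FL HSCs, 60.4, 23.1 and 80.5 in pre-HSCs, and 28.7 and 46.2 in BM HSCs (log2 difference 2.85, SE 0.41, limma's adjusted p = 0.000706). Mt1 was not called without FL replicate 1 or with no filter on low values. Steap3, an endosomal iron reductase of red cell precursors, was at 55.4 and 40.9 FPKM in FL HSCs, 2.58 to 3.25 in pre-HSCs, and 7.95 and 15.3 in BM HSCs. Asns, asparagine synthetase, was at 81.8 and 64.9 FPKM in FL HSCs, 14 to 18.9 in pre-HSCs, and 21.5 and 24 in BM HSCs. A few genes known from germ cells and meiosis were high as well. Mns1 was at 44.2 and 60.8 FPKM in FL HSCs, 4.91 to 8.51 in pre-HSCs, and 16.9 and 15.4 in BM HSCs, and Ddx4, the Vasa helicase, was at 4.01 and 8.46 FPKM in FL HSCs, 0.234 to 0.689 in pre-HSCs, and 0.153 and 0.138 in BM HSCs. Ddx4 reached 1 FPKM in the FL libraries only.

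On the low side, the caveola genes Ptrf and Sdpr (cavins) stood apart from both neighbors. Sdpr was at 3.37 and 4 FPKM in FL HSCs, 24.1, 25 and 25.7 in pre-HSCs, and 50.4 and 42.4 in BM HSCs (log2 difference -2.9, SE 0.15), and Ptrf was at 19.4 and 15.1, 74.1 to 83.1, and 62.9 and 81.6. In Endo and HE, Sdpr was at 3.06 to 4.86 FPKM, close to FL HSCs, whereas Ptrf was at 70.9 to 103. Their partner Cav1 was at 0 and 1.86 FPKM in FL HSCs, 67.6 to 100 in pre-HSCs, and 6.35 and 0 in BM HSCs, and it overlapped and was not called. Upp1, a uridine phosphorylase, was at 2.12 and 1.57 FPKM in FL HSCs, 27 to 40.2 in pre-HSCs, and 11.3 and 25.5 in BM HSCs. Tcf15, a basic helix-loop-helix factor, was at 3.43 and 4.86 FPKM in FL HSCs, 50.7 to 55.3 in pre-HSCs, and 18.6 and 21.3 in BM HSCs. Cd200, an immune checkpoint ligand, was at 1.69 and 1.76 FPKM in FL HSCs, 19.6 to 21.8 in pre-HSCs, and 17.7 and 14.5 in BM HSCs.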
